A study of Mus musculus with 8 samples.

Results

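The genes described here are 9 genes of the mural cells, the contractile cells that wrap the vessels of the brain. They were chosen by gene symbol from the 54752 genes in the count tables. Pdgfrb, Rgs5, Kcnj8, Abcc9 and Notch3 were taken as the 5 pericyte genes, and Acta2, Tagln, Myh11 and Des as the 4 arterial smooth muscle genes. Notch3 and Des are known to be expressed by both cell types, so the division is by the name of the gene and not a sorting of cells. The counts came from RNA sequencing of the right cerebral cortex of wild-type (WT) male C57BL/6 J mice (C57BL/6 in the labels) aged 14 weeks, with 4 mice after sham operation (Sham) and 4 after bilateral carotid artery stenosis (BCAS), all taken 3 weeks after surgery and 1 mouse per library. In BCAS, a microcoil around each common carotid artery lowers blood flow to the brain, and in this study the right artery, on the side of the sampled cortex, carried the narrower coil. The comparison asks how the 2 groups of mural cell genes stood in the hypoperfused cortex. The cortex was sequenced as whole tissue, so fewer cells of a type and less RNA per cell cannot be told apart for any gene below, and the same holds for more cells and more RNA per cell.

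Pericytes sit on capillaries inside the basement membrane and are held there by PDGF-B, which endothelial cells release and which acts on the receptor PDGFRB. Smooth muscle cells form the wall of arterioles and arteries and carry a contractile apparatus of smooth muscle actin (Acta2), transgelin (Tagln), smooth muscle myosin heavy chain (Myh11) and the intermediate filament desmin (Des), much of it under the control of serum response factor and its partner myocardin. Both cell types need NOTCH3, whose ligand JAG1 is presented by endothelial and mural cells, and the pore and regulatory subunits encoded by Kcnj8 and Abcc9 form the ATP-sensitive potassium (KATP) channel of mural cells.

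The 8 libraries held 16759364 to 21794435 counts each, and 3 counts, the number that a count of 0 allows, correspond to 0.138 to 0.179 CPM (counts scaled to a fixed library total) across the libraries. This floor covers counting error only. Levels are given below as CPM after TMM normalization, changes as log2 fold changes of BCAS against Sham from the quasi-likelihood test of edgeR, with p-values adjusted after Benjamini and Hochberg over 17136 tested genes, and a gene was called at an adjusted p under 0.05. On the log2 scale, the Sham libraries differed from each other by a root mean square of 0.42 to 0.52 per gene and the BCAS libraries by 0.45 to 0.93, against 0.62 to 1.34 between groups. The library of Sham mouse 3 stood apart for choroid plexus genes, whose summed level was 779 CPM there and 18.2 to 75.2 CPM in the other 7.

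Beside the mural cell genes, markers of other cell types moved with the groups. All 12 microglia and macrophage markers rose (summed level 336 to 399 CPM in Sham, 1963 to 8278 CPM in BCAS), 11 of 11 tested fibroblast markers of 12 rose (166 to 207 CPM in Sham, 310 to 1190 CPM in BCAS), and 6 of 8 neuronal markers fell (7839 to 9252 CPM in Sham, 2984 to 6566 CPM in BCAS). No fibroblast marker was at 0 in every library. Dpep1, the untested one, had a count of 0 in 5 of the 8. Of the other lists, 6 of 8 astrocyte markers and 2 of 5 blood markers rose. Among all tested genes, 19.2% were called higher and 12.8% lower. The blood count, from 5 markers, is not read as a result about its list. The median log2 fold change was 0.21 over 7 oligodendrocyte and -0.54 over 6 choroid plexus markers. The choroid plexus median leaned on Sham mouse 3, where 5 of these 6 markers had their highest value of all 8 libraries. The part of these cell types in the values below was not tested.

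Of the 9 mural cell genes, 8 had enough counts to be tested and Tagln had not. Pdgfrb, Abcc9 and Notch3 rose in BCAS, all of them pericyte genes, and no mural cell gene fell by edgeR, DESeq2 or limma, nor by edgeR at an unadjusted p under 0.05. Thus 3 of 8 tested members were called higher, where 19.2% of all tested genes were called higher and 12.8% lower. Of all called genes 59.9% were higher, and 75.5% with scaling by library size alone. DESeq2, and edgeR without BCAS mouse 2, called 5 members, with Kcnj8 and Des beside these 3. None passed the study's thresholds of an adjusted p under 0.05 together with an absolute log2 fold change above 1, which 11% of all tested genes passed upwards and 1.28% downwards, and none passed that fold at an unadjusted p under 0.05. DESeq2 also gave none, whereas the fit on library size alone gave 1, Pdgfrb. All 8 fitted log2 fold changes were positive, as were 49.5% of those of all tested genes. Their median was 0.67, with 0.68 over the 5 pericyte genes and 0.20 over the 3 tested muscle genes, beside -0.01 over all tested genes. The changes of Acta2 and Myh11 turned negative with limma-voom (-0.068 and -0.10) and without BCAS mouse 4 (-0.51 each).

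**Figure D1:**
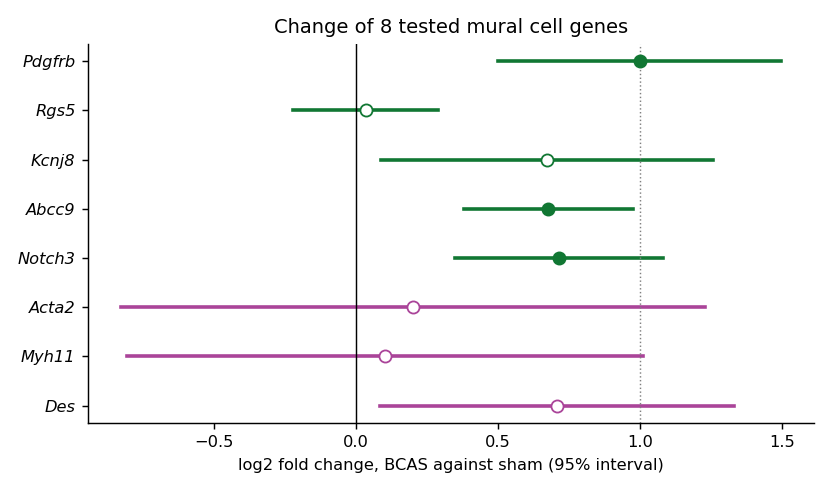
Log2 fold change of BCAS against Sham with its 95% interval for the 8 tested mural cell genes (4 mice per group), pericyte genes in green and muscle genes in purple, with filled points for genes called by edgeR and a dotted line at a log2 fold change of 1. The intervals of Pdgfrb, Kcnj8, Abcc9, Notch3 and Des lie above 0, while those of Acta2 (-0.83 to 1.23) and Myh11 (-0.81 to 1.01) are the widest.

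Levels were first compared between the genes per kilobase of exon. In Sham, Rgs5 was the most abundant at 33.6 ± 2.42 CPM per kilobase (SD, n = 4), followed by Acta2 at 14.2 ± 3.17, Pdgfrb at 6.97 ± 0.469, Notch3 at 3.44 ± 0.385 and Myh11 at 3.13 ± 0.619. Kcnj8 at 1.89 ± 0.630, Abcc9 at 1.69 ± 0.178, Des at 0.924 ± 0.222 and Tagln at 0.112 ± 0.0567 CPM per kilobase came last. From Notch3 to Abcc9 the values of the single Sham mice overlapped between each gene and the next, and those of the other neighbours in this order did not. The order of the means was the same in BCAS, but there the range of Acta2, 6.88 to 35.4 CPM per kilobase, overlapped both that of Rgs5 (30.7 to 41.7) and that of Pdgfrb (8.67 to 20.1).

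Pdgfrb (ENSMUSG00000024620.11, mm10 chr18:61045150-61085061) encodes the receptor through which pericytes receive PDGF-B. Its level was 38.7, 41.3, 37.6 and 35.1 CPM in Sham mice 1 to 4 and 109.9, 47.5, 82.4 and 65.3 CPM in BCAS mice 1 to 4. Every BCAS mouse lay above every Sham mouse, with mouse 1 the highest and mouse 2 close to the Sham range. The mean rose from 38.2 ± 2.57 to 76.3 ± 26.5 CPM (SD, n = 4), a log2 fold change of 1.00 with a standard error of 0.22 and a 95% interval of 0.50 to 1.498 (edgeR, adjusted p = 0.0127). The fitted change was just under the fold threshold, and 88.0% of all tested genes had a lower one. Fibroblasts also express Pdgfrb, and the mean log2 level of their markers relative to Sham was 2.69, 0.81, 2.66 and 1.93 in BCAS mice 1 to 4. From high to low the order of the 4 mice was 1, 3, 4 and 2 for Pdgfrb, for these markers, for the microglia markers and for Rgs5, and the part of these cells in the Pdgfrb values was not tested.

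Rgs5 (ENSMUSG00000026678.10, mm10 chr1:169655501-169695813), a regulator of G-protein signalling used as a pericyte marker, was not called. Its level was 159.6, 159.8, 136.7 and 155.5 CPM in Sham mice and 189.5, 139.7, 154.4 and 142.1 CPM in BCAS mice. The groups overlapped, and of the BCAS mice only mouse 1 lay above the Sham range. The means were 152.9 ± 11.0 and 156.4 ± 23.0 CPM (SD, n = 4), a log2 fold change of 0.03 with a standard error of 0.11 (edgeR, adjusted p = 0.840), and -0.06 without BCAS mouse 1. Its interval of -0.22 to 0.29 lay wholly below that of Pdgfrb, 0.50 to 1.498. The ratio of Pdgfrb to Rgs5 CPM was 0.226 to 0.275 in Sham mice, against 0.580, 0.340, 0.534 and 0.460 in BCAS mice 1 to 4, higher in all 4 BCAS mice than in any Sham mouse.

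The 2 channel genes lie next to each other on chromosome 6 and had similar fitted changes. Abcc9 (ENSMUSG00000030249.15, mm10 chr6:142587862-142702315), the sulfonylurea receptor subunit SUR2, was at 16.1, 12.8, 13.2 and 14.4 CPM in Sham mice and at 27.6, 20.4, 20.5 and 21.7 CPM in BCAS mice. The groups did not overlap, and BCAS mice 2 to 4 lay close together. Its log2 fold change was 0.68 with a standard error of 0.13 and an interval of 0.38 to 0.97 (edgeR, adjusted p = 0.00829).

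Kcnj8 (ENSMUSG00000030247.9, mm10 chr6:142564837-142571614), the pore subunit Kir6.1, was at 7.05, 4.80, 3.32 and 4.10 CPM in Sham mice and at 9.36, 5.46, 7.72 and 8.17 CPM in BCAS mice. BCAS mouse 2 fell below Sham mouse 1, and the other 3 BCAS mice lay above all Sham mice. Its log2 fold change was 0.67 with a standard error of 0.26 and an interval of 0.09 to 1.26, and it missed the threshold (edgeR, adjusted p = 0.0733). It was called by DESeq2 (adjusted p = 0.0404), by edgeR on library size alone (0.77, adjusted p = 0.0488), without Sham mouse 1 (0.91, adjusted p = 0.0416) and without BCAS mouse 2 (0.82, adjusted p = 0.0216).

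Notch3 (ENSMUSG00000038146.7, mm10 chr17:32120820-32166880), the Notch receptor of mural cells, was at 32.05, 27.5, 25.3 and 25.7 CPM in Sham mice and at 51.6, 32.7, 42.4 and 54.7 CPM in BCAS mice. The groups did not overlap, although BCAS mouse 2 lay just above Sham mouse 1. The mean rose from 27.6 ± 3.10 to 45.3 ± 9.91 CPM (SD, n = 4), a log2 fold change of 0.71 with a standard error of 0.16 and an interval of 0.35 to 1.08 (edgeR, adjusted p = 0.0140). Counting was not stated to use strand, and 6.07% of its exon bases are shared with a gene on the other strand. Pdgfrb, Abcc9 and Notch3 were thus the members without overlap, 3 of 8 tested, where 18.5% of all tested genes lay higher without overlap and 16.3% lower.

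**Figure D2:**
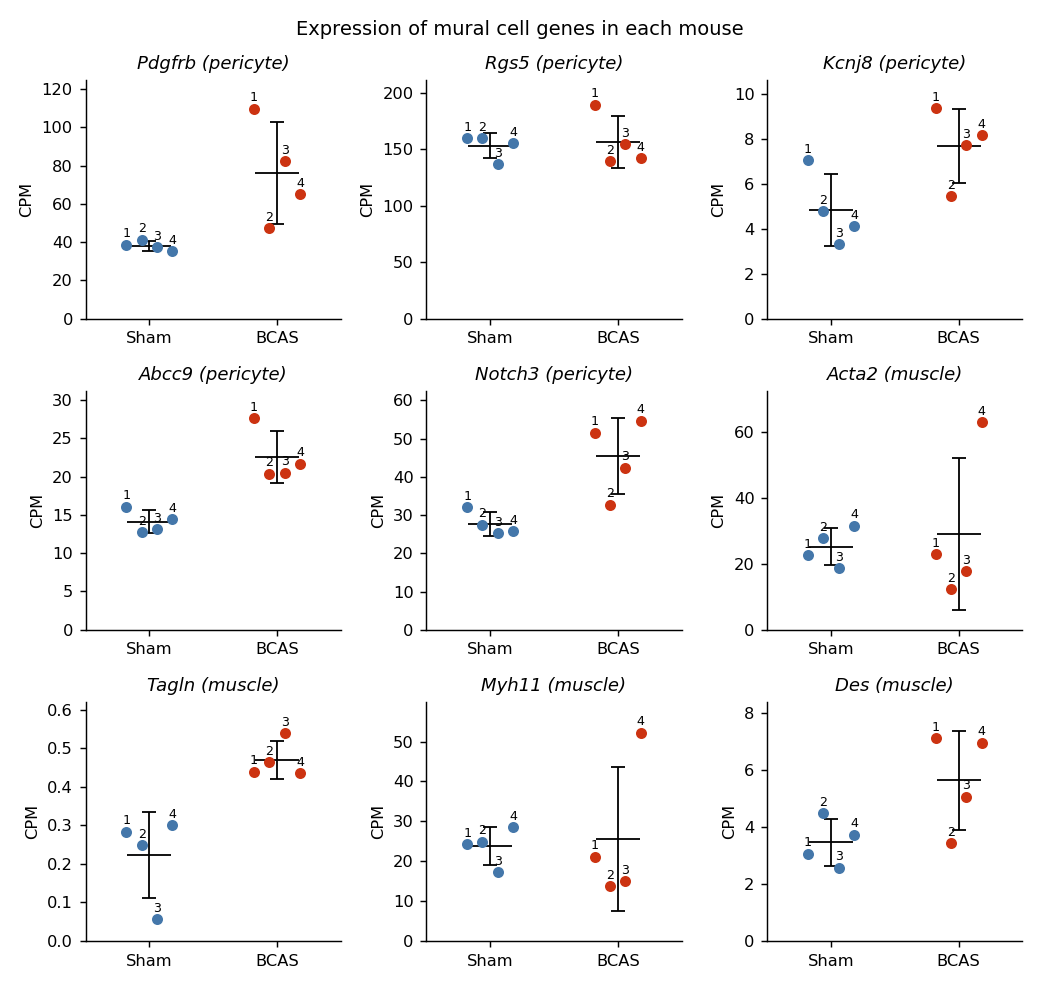
TMM-normalized level (CPM, linear axes from 0) of the 9 mural cell genes in each Sham and BCAS mouse, with the group mean and SD. The 4 BCAS points lie above the 4 Sham points for Pdgfrb, Abcc9, Notch3 and, at fewer than 1 CPM, Tagln, while a single BCAS mouse, number 4, carries the highest Acta2 and Myh11 values.

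Of the arterial muscle genes, Acta2 and Myh11 were spread widely within the BCAS group. Des and Tagln were spread less, with a highest BCAS value 2.06 and 1.24 times the lowest. Acta2 (ENSMUSG00000035783.8, mm10 chr19:34241090-34255336) was at 22.6, 27.9, 18.8 and 31.6 CPM in Sham mice and at 22.9, 12.3, 17.8 and 63.1 CPM in BCAS mice. BCAS mice 2 and 3 lay below every Sham mouse, mouse 1 within the Sham range and mouse 4 far above it. The highest BCAS value was 5.15 times the lowest, against 2.31 times for Pdgfrb and 1.36 times for Rgs5. The fitted log2 fold change was 0.20 with a standard error of 0.46 and an interval of -0.83 to 1.23 (edgeR, adjusted p = 0.754). Without BCAS mouse 4 it was -0.51 (adjusted p = 0.158), so its direction rested on this mouse, and limma-voom gave -0.068 with all 8.

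Myh11 (ENSMUSG00000018830.10, mm10 chr16:14194535-14291372) was at 24.4, 24.9, 17.3 and 28.6 CPM in Sham mice and at 21.1, 13.8, 15.02 and 52.3 CPM in BCAS mice. The mice stood as they did for Acta2, with numbers 2 and 3 of the BCAS group below all Sham mice and number 4 above them. Its log2 fold change was 0.10 with a standard error of 0.40 and an interval of -0.81 to 1.01 (edgeR, adjusted p = 0.862), against -0.51 without BCAS mouse 4 (adjusted p = 0.110) and -0.10 with limma-voom. The ratio of Acta2 to Myh11 CPM kept between 0.891 and 1.21 over all 8 mice, whereas the ratio of Acta2 to Notch3 was 0.706 to 1.23 in Sham mice, against 0.444, 0.375, 0.419 and 1.15 in BCAS mice 1 to 4. In BCAS mice 1 to 3, Acta2 was therefore lower relative to Notch3 than in any Sham mouse.

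**Figure D3:**
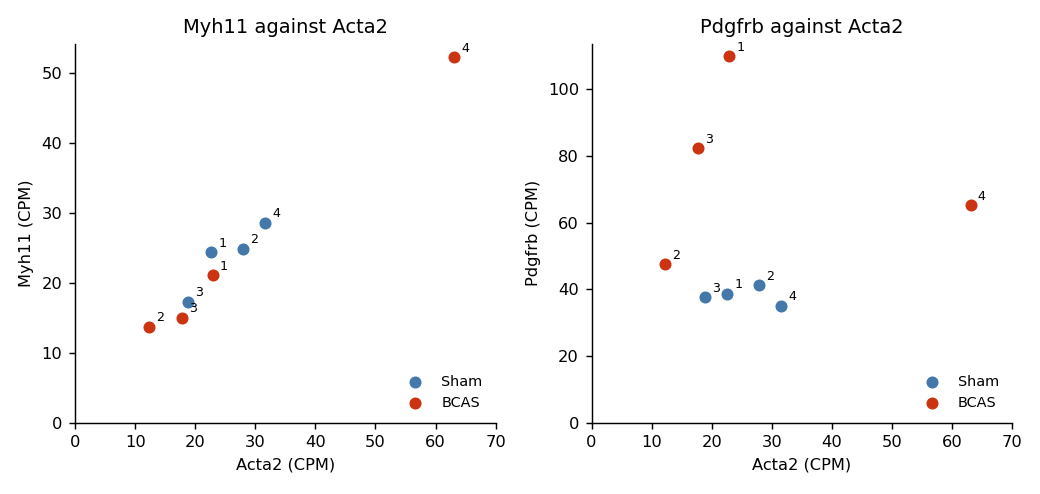
Level of Myh11 (left) and Pdgfrb (right) against that of Acta2 in the same library (CPM, linear axes from 0), 1 point per mouse with its number, Sham in blue and BCAS in red. Myh11 follows Acta2 along 1 line over all 8 mice and BCAS mouse 4 lies at its far end, whereas the BCAS points lie above the Sham points on the Pdgfrb axis whatever their Acta2 level.

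Des (ENSMUSG00000026208.9, mm10 chr1:75360329-75368579) was at 3.07, 4.49, 2.57 and 3.74 CPM in Sham mice and at 7.12, 3.45, 5.08 and 6.97 CPM in BCAS mice. BCAS mouse 2 lay within the Sham range and the other 3 above it. The log2 fold change was 0.71 with a standard error of 0.28 and an interval of 0.08 to 1.33 (edgeR, adjusted p = 0.0762). It was the only muscle gene at an unadjusted p under 0.05, and the only 1 of 3 that DESeq2 called (0.71, adjusted p = 0.0446). Without BCAS mouse 2, edgeR called it too (0.90, adjusted p = 0.0127). Desmin is also a skeletal muscle protein. Of 10 skeletal muscle markers 5 were tested, 1 rose and 1 fell, beside 19.2% higher and 12.8% lower among all tested genes, with a median log2 fold change of -0.99. Their summed level, mostly Acta1, was 13.6 to 23.0 CPM in Sham and 6.68 to 13.96 CPM in BCAS. Tnni2, a troponin, rose (log2 fold change 3.47, edgeR adjusted p = 0.0103) and the myosin Myh1 fell (-1.68, adjusted p = 0.0154), while Myh2 at -1.17, Acta1 at -0.99 and Mylpf at -0.39 were not called. Tnni2 had 7, 1, 0 and 3 counts in Sham mice, a mean of 0.160 CPM at the floor, so its fold change is uncertain. The part of such cells in the Des values was not tested.

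Tagln (ENSMUSG00000032085.5, mm10 chr9:45929619-45936058), a classical marker of smooth muscle, was barely detected. It had 5, 4, 1 and 5 counts in Sham mice and 10, 9, 10 and 8 counts in BCAS mice, or 0.223 ± 0.113 and 0.470 ± 0.0485 CPM (SD, n = 4). Every BCAS count was above every Sham count. The ratio of the summed counts, relative to the summed raw library totals, was 2.25 (exact Poisson interval 1.20 to 4.40, counting error only). The ratio of the mean CPM after TMM normalization was 2.11. Without the filter on low counts, edgeR gave a log2 fold change of 1.05 (adjusted p = 0.268 over 32537 genes). Other genes on the opposite strand cover 67.9% of its 1988 exon bases, and no counting option was given for read pairs that touch more than 1 gene. Dividing its whole CPM by the 639 bases that no other gene covers gave 0.349 CPM per kilobase in Sham and 0.735 in BCAS. Des, the next lowest member, was at 0.924 and 1.51 CPM per kilobase of exon. Which bases the Tagln counts came from was not known, and the part of the overlap in its low level was not tested.

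The promoter of Acta2 was set beside that of Rgs5, the gene that was most abundant per kilobase, because smooth muscle contractile genes are known to be driven through the CArG box, the binding motif of serum response factor. Each line gives the 250 bases before the RefSeq start of the gene on its own strand (GRCm38.p6), with matches to the motif in capitals.
Acta2, chr19:34255374-34255623, minus strand: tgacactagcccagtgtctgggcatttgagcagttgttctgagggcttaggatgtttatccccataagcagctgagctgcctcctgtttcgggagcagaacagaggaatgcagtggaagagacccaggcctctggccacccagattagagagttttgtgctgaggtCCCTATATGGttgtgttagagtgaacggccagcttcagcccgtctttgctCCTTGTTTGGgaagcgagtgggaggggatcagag
Rgs5, chr1:169655251-169655500, plus strand: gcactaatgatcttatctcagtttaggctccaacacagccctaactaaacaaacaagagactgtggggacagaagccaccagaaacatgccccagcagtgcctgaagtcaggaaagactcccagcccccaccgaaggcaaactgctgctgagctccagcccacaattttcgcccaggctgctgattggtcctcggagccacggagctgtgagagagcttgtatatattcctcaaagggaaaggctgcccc
With a core of only A and T, the CArG box was found in none of the 6 members that had a promoter in the reference table (Rgs5, Kcnj8, Abcc9, Notch3, Acta2 and Des), on either strand, and in 1.47% of 32841 promoters. With at most 1 G or C allowed in the core, a reading chosen after the sequences were seen, Acta2 held 2 matches, CCCTATATGG at 84 to 75 bases and CCTTGTTTGG at 34 to 25 bases before the start, and the other 5 held none. This reading was matched by 8.59% of all promoters. The core motif of the Notch partner RBPJ, GTGGGAA, was found in none of the 6 and in 5.41% of all promoters. A match describes letters in this window only.

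The 2 groups were then compared within each mouse, as the mean log2 CPM of the 5 pericyte genes minus that of the 4 muscle genes, relative to the Sham mean. This difference was 0.19, -0.19, 0.36 and -0.36 in Sham mice 1 to 4, against 0.54, 0.46, 0.48 and -0.46 in the 4 BCAS mice. The 3 BCAS mice 1 to 3 lay above all Sham mice, and mouse 4, with its high Acta2 and Myh11, below all of them. The mean of the BCAS mice exceeded that of the Sham mice by 0.25, less than the SD within either group (0.33 in Sham and 0.48 in BCAS, n = 4). With a mouse left out it lay between 0.13 (without Sham mouse 4) and 0.49 (without BCAS mouse 4), and it was 0.19 at a prior count of 0.5, 0.43 without the thinly counted Tagln and 0.68 with neither Tagln nor Des.

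Endothelial genes gave a second reference, since mural and endothelial cells share the vessel. Of 16 endothelial markers 2 rose and none fell, beside 19.2% called higher among all tested genes, with a median log2 fold change of 0.30. Cdh5, the cadherin of endothelial junctions, changed by 0.87 (edgeR, adjusted p = 0.0183) and Pecam1 by 0.58 (adjusted p = 0.0283), while Ramp2 at 0.58 (adjusted p = 0.0543) and Esam at 0.40 (adjusted p = 0.0696) missed the threshold. The mean log2 level of the list relative to Sham was 0.66, -0.03, 0.22 and 0.39 in BCAS mice 1 to 4, and 15 of the 16 markers had their highest value of all 8 libraries in BCAS mouse 1.

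Relative to the endothelial markers of the same mouse, the pericyte genes stood at 0.13, -0.05, 0.02 and -0.10 in Sham mice 1 to 4, against 0.28, 0.27, 0.38 and 0.23 in BCAS mice. All 4 BCAS mice lay above all Sham mice, by 0.29 on average (SD 0.10 in Sham and 0.065 in BCAS, n = 4). The muscle genes stood at -0.27, -0.19, -0.09 and 0.69 against the endothelial markers in BCAS mice 1 to 4. Their mean difference of 0.04 was within the SD of both groups (0.26 in Sham and 0.44 in BCAS), and without BCAS mouse 4 it was -0.18.

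**Figure D4:**
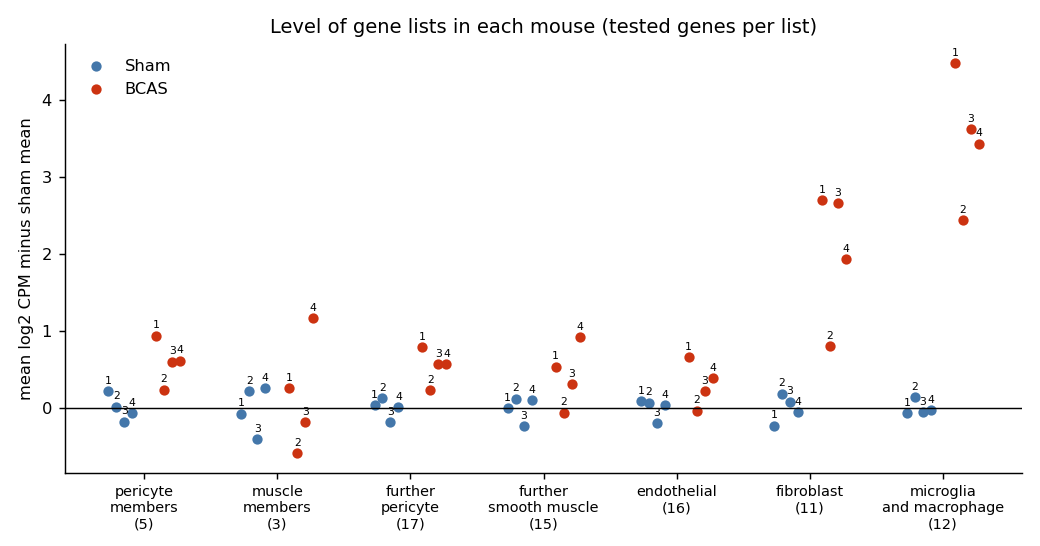
Mean log2 CPM of each gene list in each mouse (numbers), minus the Sham mean, for tested genes only (their number in brackets), Sham in blue and BCAS in red. In the BCAS group the pericyte lists, the endothelial list and the microglia list are highest in mouse 1, and both muscle lists are highest in mouse 4.

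Further mural cell genes gave a wider view of both groups. Of 17 further pericyte genes, 7 rose and 1 fell, beside 19.2% higher and 12.8% lower among all tested genes, with a median log2 fold change of 0.51. Cspg4, the proteoglycan NG2 that oligodendrocyte precursors also carry, rose from 25.5 ± 1.58 to 60.7 ± 18.7 CPM (SD, n = 4; log2 fold change 1.25, standard error 0.19, edgeR adjusted p = 0.00331). Vitronectin (Vtn), which pericytes secrete, rose from 79.8 to 128 CPM (0.69, adjusted p = 0.00471). The transcription factors Tbx18 and Foxc1 rose by 1.45 (adjusted p = 0.00876) and 1.09 (adjusted p = 0.0138). The gene that fell, Gucy1b1, a subunit of the nitric oxide receptor guanylate cyclase that neurons also express, changed by -0.58 (adjusted p = 0.0389), and it was named after its value was seen. The other 9 were not called, and several of them had fitted changes between those of Rgs5 and Abcc9, such as Cox4i2 at 0.14, Higd1b and Mcam at 0.21 each, Atp13a5 at 0.22 and Ndufa4l2 at 0.39, also named after their values were seen.

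Of 16 further smooth muscle genes, 15 were tested, 2 rose and none fell, with a median of 0.53. Both this count and the endothelial one lay within about 1 gene of that share of 19.2%, so neither is a result about its list. The 2 were Synpo2, an actin-bundling protein, at 0.85 (edgeR, adjusted p = 0.0136) and Cald1, caldesmon, at 0.89 (adjusted p = 0.0136), while Smtn, smoothelin, at 0.67 (adjusted p = 0.0554) and the integrin Itga8 at 0.62 (adjusted p = 0.0883) missed the threshold. Synpo2 and Cald1 had their highest values in BCAS mouse 1, as Pdgfrb had. By contrast, 11 of the 16 further smooth muscle genes had their highest value of all 8 libraries in BCAS mouse 4, where Acta2 and Myh11 peaked, against 4 of the 17 further pericyte genes and 1 of the 16 endothelial markers.

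The pattern is shown by 3 contractile genes that were chosen after their values were seen. Calponin (Cnn1) had 13, 29, 14 and 27 counts in Sham mice and 27, 13, 16 and 124 counts in BCAS mice. Enteric smooth muscle actin (Actg2) had 2, 4, 1 and 4 counts in Sham mice and 14, 3, 2 and 70 counts in BCAS mice. The regulatory light chain Myl9 was at 14.8, 15.5, 13.3 and 16.6 CPM in Sham mice and at 17.1, 12.7, 15.9 and 31.9 CPM in BCAS mice. Each was highest in BCAS mouse 4. In BCAS mouse 1, Actg2 and Myl9 also lay above the Sham range, and Cnn1 within it.

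Among the PDGF ligands and receptors, 3 of 5 rose and none fell, where 19.2% of all tested genes were called higher. Pdgfb, the ligand that endothelial cells offer to pericytes, was at 33.9, 38.6, 37.5 and 38.7 CPM in Sham mice and at 84.4, 49.3, 57.3 and 62.3 CPM in BCAS mice. The groups did not overlap, and mouse 1 was the highest and mouse 2 the lowest of the BCAS mice, as for its receptor Pdgfrb. Its log2 fold change was 0.77 with a standard error of 0.15 (edgeR, adjusted p = 0.00883), beside 1.00 for the receptor. The median of the endothelial markers was 0.30, and which cells of the cortex carried the Pdgfb transcripts was not tested. Pdgfd, another ligand of PDGFRB, rose from 4.70 to 9.30 CPM (0.99, adjusted p = 0.00630). Pdgfra, the receptor of fibroblasts and oligodendrocyte precursors, rose by 0.51 (adjusted p = 0.0238), and Pdgfc at 0.32 missed the threshold (adjusted p = 0.112).

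In the Notch pathway, 5 of 14 genes rose and none fell, beside 19.2% higher and 12.8% lower among all tested genes, with a median log2 fold change of 0.44. The other 3 Notch receptors were all among them, beside Notch3 at 0.71: Notch2 rose from 28.8 to 74.8 CPM (1.38, edgeR adjusted p = 0.00568), Notch1 by 0.65 (adjusted p = 0.0116) and Notch4 by 0.91 (adjusted p = 0.0220). The ligand Jag1 rose from 10.7 to 16.8 CPM (0.65, adjusted p = 0.0218). The fifth, the target gene Heyl, was named after its value was seen and rose by 0.48 (adjusted p = 0.0305). The other 5 target genes of the list were not called, with log2 fold changes of -0.15 for Hes1, -0.013 for Hes5, -0.15 for Hey1, 0.41 for Hey2 and -0.25 for Nrarp. Microglia and macrophages also express Notch2, and all 12 of their markers rose.

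The KATP subunits of neurons and endocrine cells, Kcnj11 (Kir6.2) and Abcc8 (SUR1), both fell, where 12.8% of all tested genes were called lower. Kcnj11 was at 71.0, 58.7, 42.2 and 61.9 CPM in Sham mice and at 16.8, 42.1, 31.7 and 28.2 CPM in BCAS mice, and Abcc8 at 44.3, 35.4, 31.7 and 32.04 CPM against 8.35, 27.4, 20.8 and 15.9 CPM. Neither overlapped between groups, where 16.3% of all tested genes lay lower without overlap. For Kcnj11, BCAS mouse 2 (42.1 CPM) lay only just below Sham mouse 3 (42.2 CPM). Both genes were lowest in BCAS mouse 1, where Kcnj8 and Abcc9 were highest. The log2 fold changes were -0.98 with a standard error of 0.26 (edgeR, adjusted p = 0.0234) and -0.99 with a standard error of 0.31 (adjusted p = 0.0379), beside 0.67 for Kcnj8 and 0.68 for Abcc9. Neuronal markers, of which 6 of 8 fell with a median of -0.81, were also lowest in BCAS mouse 1, and their part in these values was not tested.

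Of the factors that act on the contractile genes, 9 of 10 were tested, 3 rose and 1 fell, beside 19.2% higher and 12.8% lower among all tested genes. Srf, the serum response factor itself, was at 59.9 CPM in Sham and 53.3 CPM in BCAS (log2 fold change -0.17, edgeR adjusted p = 0.209). Its coactivator Mrtfb fell from 268 to 190 CPM (-0.49, adjusted p = 0.0362). The smooth muscle coactivator Myocd was too low to be tested, with 7, 1, 2 and 12 counts in Sham mice and 7, 12, 5 and 18 counts in BCAS mice, and its highest count was in BCAS mouse 4. The growth factor Tgfb1 rose from 7.50 to 73.0 CPM (3.28, adjusted p = 0.00203) and its receptors Tgfbr1 by 2.26 (adjusted p = 0.00214) and Tgfbr2 by 2.66 (adjusted p = 0.00280), genes that microglia express as well.

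**Figure D5:**
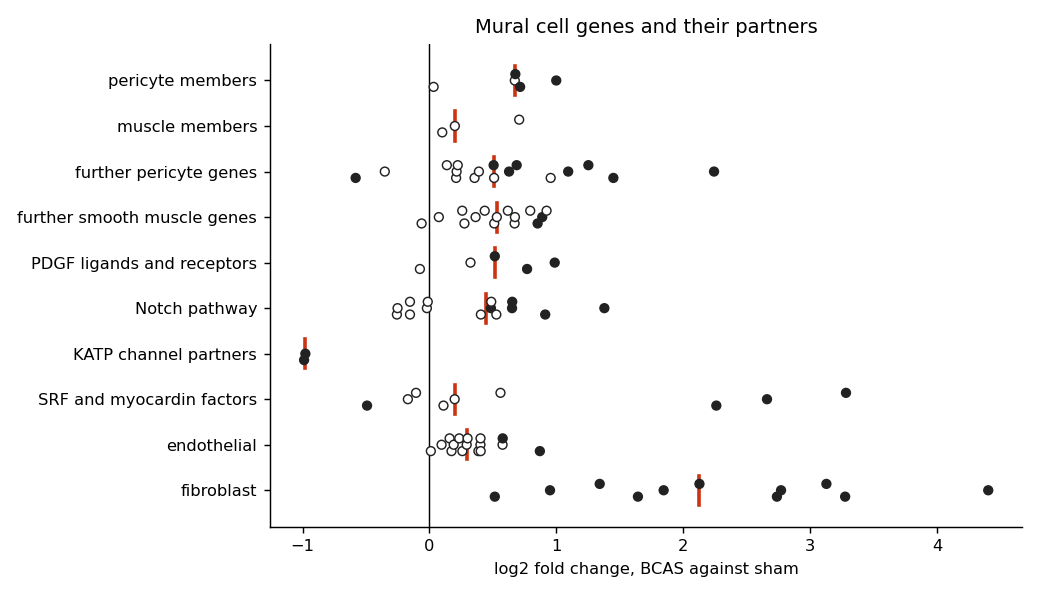
Log2 fold change of BCAS against Sham (4 mice per group) of each tested gene in the mural cell lists and the lists of partners and neighbouring cells, 1 point per gene, filled where edgeR called it, with the list median as a red bar. The medians of the pericyte, smooth muscle, PDGF and Notch lists lie between 0.20 and 0.68, those of the KATP partners at -0.98 and of the fibroblast markers at 2.13.

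Fibroblasts of the meninges and the perivascular space lie next to mural cells, and the median log2 fold change of their 11 tested markers was 2.13. Col3a1, a fibrillar collagen, changed by 4.40 (edgeR, adjusted p = 0.00347), Dcn, decorin, by 2.74 (adjusted p = 0.00437), Ogn by 1.64 (adjusted p = 0.00490) and the transporter Slc6a13 by 0.95 (adjusted p = 0.00380). The mean level of the list was highest in BCAS mice 1 and 3, while Ogn and Slc6a13 were highest in mouse 4, the mouse with the most Acta2 and Myh11.

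Within the BCAS group, 8 of the 9 members had their lowest value in mouse 2, which was also the lowest BCAS mouse for the endothelial, fibroblast and microglia lists. The highest value was in mouse 1 for 5 members (Pdgfrb, Rgs5, Kcnj8, Abcc9 and Des), in mouse 4 for 3 (Notch3, Acta2 and Myh11) and in mouse 3 for Tagln. Mice 1 and 4 were close for Des (7.12 and 6.97 CPM) and for Notch3 (51.6 and 54.7 CPM). In the Sham group, mouse 3, the library with the high choroid plexus genes, was lowest for Rgs5, Kcnj8, Notch3, Acta2, Tagln, Myh11 and Des. Without it, the log2 fold change was 0.52 for Kcnj8, 0.58 for Des, -0.025 for Rgs5 and -0.032 for Myh11.

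The genes whose levels followed those of the members most closely over the 8 libraries were sought among 12431 genes that averaged at least 100 counts. For the mean of the scaled pericyte genes these were Nek7 (Pearson r = 0.995), Ezr (0.995), Pnpla2 (0.994), Smox (0.993) and Rmi1 (0.992). For the muscle genes they were D630003M21Rik (0.951), Apcdd1 (0.942), Rpl14-ps1 (0.941), 4833439L19Rik (0.939) and Carns1 (0.937). These values describe 8 libraries that share a group difference and, for the muscle genes, 1 library (BCAS mouse 4) far above the others. The muscle mean weighted each muscle gene alike, the thinly counted Tagln included, which correlated at 0.068 with Acta2 and 0.069 with Myh11. Sham mouse 3 had the lowest Sham value of each muscle gene.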

How the data were processed

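Per the labels, Trim Galore, HISAT2 (mm10) and SAMtools 1.9 served for trimming, alignment and sorting. The authors counted read pairs per gene with featureCounts, 1.6.3 per the labels and 2.0.1 per the file headers, which name GENCODE vM20 and give no option for strand, multi-mapped pairs or pairs on several genes. The deposited counts are raw, and none is split between genes. Counts were tested with edgeR 4.0.16 (R 4.3.3; TMM, filterByExpr with minimum count 10 and minimum total 15, quasi-likelihood test of 4 BCAS against 4 Sham mice, no covariates). The standard error is the log2 fold change divided by the square root of its F statistic, and intervals are 95%. Alternatives were DESeq2 1.42.0, limma 3.58.1, other scalings and filters, a replicate block and leaving out each mouse. The steps were tested on simulated data. Symbols were found for 99.9% of gene IDs. For list means, a prior count of 2 was added before taking log2 CPM. Other genes named were up to 4 with the smallest p per list, and Pdgfb, Jag1, Myocd, Srf, Kcnj11 and Abcc8, and a few more, among them Dpep1, Cnn1 and the other Notch targets, chosen after their values were seen. The members and lists were chosen with earlier results of these data known, so list counts are descriptions. Promoters are from RefSeq. Figures were drawn with matplotlib 3.10.9.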

Additional observations from a re-analysis of the deposited data

Results flagged for a closer look

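In 2 of 26 groups of 4 mice, 1 mouse lay far from the other 3 by Dixon's ratio, the gap to the nearest mouse divided by the range of the group, where chance alone takes about 1 group in 20 past the 95% critical value. The pericyte minus muscle level in BCAS had a ratio of 0.918, with mouse 4 at -0.46 and the other 3 mice at 0.46 to 0.54. The level of all 9 members relative to the endothelial markers in Sham had a ratio of 0.878, with mouse 3, the library with the high choroid plexus genes, below the other 3. Single genes of the members stayed under the critical value, the nearest being Abcc9 in BCAS at 0.821 (mouse 1), Rgs5 in Sham at 0.814 (mouse 3), Myh11 in BCAS at 0.808 and Acta2 in BCAS at 0.791 (both mouse 4).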

How the results depend on the processing

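Pdgfrb, Abcc9 and Notch3 were called higher under every alternative tried (lowest to highest log2 fold change with a mouse left out 0.78 to 1.18, 0.58 to 0.74 and 0.61 to 0.86, and in the other fits 0.92 to 1.09, 0.63 to 0.77 and 0.67 to 0.81). Kcnj8 was called by DESeq2 (0.67) and on library size alone (0.77), and ranged from 0.52 to 0.91 with a mouse left out. Des was called by DESeq2 (0.71) and ranged from 0.58 to 0.90 with a mouse left out. Thus DESeq2 called 5 members and 1 muscle gene, and with a mouse left out edgeR called 3 to 5 members, 3 to 4 pericyte genes and 0 to 1 muscle genes. Members past both thresholds numbered 1 on library size alone, 1 with at least 10 counts in every library and 0 to 1 with a mouse left out. The direction of Acta2 reversed with limma-voom (-0.068), limma on log2(CPM + 1) (-0.053) and the replicate block (-0.050), and ranged from -0.51 to 0.47 with a mouse left out; that of Myh11 reversed likewise (-0.10, -0.089 and -0.095; -0.51 to 0.32). Rgs5 ranged from -0.060 to 0.097 with a mouse left out and from 0.017 to 0.12 otherwise. The cause was not tested. Replicate numbers did not pair the mice (correlation of deviations -0.10 to 0.001), and with the replicate block 1127 genes were called lower, against 1294 on library size alone, 2199 in the main test and 418 to 3675 with a mouse left out (418 without Sham mouse 1, 3675 without BCAS mouse 2). Genes called higher ranged from 2131 to 4491 with a mouse left out. The pericyte minus muscle level was 0.68 without Tagln and Des and 0.13 to 0.49 with a mouse left out. The muscle level against endothelial genes turned to -0.069 without Des and Notch3, -0.14 without Tagln and -0.39 without both Tagln and Des, and ranged from -0.18 to 0.13 with a mouse left out. The readings without Tagln were added after the data were seen.

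With 4 mice a group, changes of Acta2 and Myh11 within their intervals were not excluded, and a p above the threshold does not show that a gene kept its level. Tagln rested on 15 counts in Sham and 37 in BCAS. Whole cortex does not resolve arterioles from capillaries, and how many larger vessels each piece of cortex held was not measured.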
